A study of Homo sapiens with 10 samples.

Results

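Transcript levels of 10 regulators of apoptosis and TNF receptor signalling were compared between lycorine-treated and vehicle-treated PANC-1 cells. The genes are the inhibitor of apoptosis genes BIRC2, BIRC3, BIRC6 and XIAP, the caspase inhibitor gene CFLAR, the IAP antagonist genes DIABLO and HTRA2, the adaptor genes TRAF1 and TRAF2, and the deubiquitinase gene CYLD. They were taken by name from a table of 20263 genes, all 10 were found, and all 10 were among the 11663 genes tested, a set limited to genes that reached a TPM of 1 in 5 or more of the 10 libraries. TPM is a transcript level corrected for transcript length and for the library's total, so that levels of different genes can be set side by side.

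PANC-1 is an established human cell line from a carcinoma of the pancreas. Cells of the LY group received 20 µM LY for 24 h, and LY is lycorine, a plant alkaloid that inhibits protein synthesis, by the series title. Cells of the DMSO group received the solvent, also for 24 h. Each group had 5 RNA sequencing libraries by the sample labels, although the series text counts 4 samples per group. The control columns are called NC-1 to NC-5 in the table, and their numbers could not be tied to single control samples. The labels do not tell whether replicates were grown separately. The p-values therefore set the group difference against the spread between these libraries, which may be technical. In bulk RNA, a change in the share of cells that carry a transcript and a change in RNA per cell cannot be told apart. Protein was not measured.

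Inhibitors of apoptosis (IAPs) share the BIR domain, which binds caspases and other partners. XIAP blocks caspases directly, whereas the proteins of BIRC2 (cIAP1) and BIRC3 (cIAP2) are ubiquitin ligases that TRAF2 brings to TNF receptors, where they build ubiquitin chains that favour NF-kB signalling over cell death. CYLD takes such chains apart, the CFLAR protein (FLIP) occupies the caspase 8 activation complex, and the DIABLO and HTRA2 proteins leave mitochondria during apoptosis and displace caspases from IAPs. BIRC3, TRAF1 and CFLAR are textbook NF-kB target genes.

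BIRC2 (ENSG00000110330, chromosome 11, 102347211 to 102378670, plus strand, GRCh38) and BIRC3 (ENSG00000023445, chromosome 11, 102317450 to 102339403, plus strand) are neighbours, 7.8 kb apart. CYLD (ENSG00000083799) lies on chromosome 16, 50742050 to 50801935, plus strand. These 3 genes had the largest increases of the 10, and the sequences around their start sites are shown for that reason. They are RefSeq promoter windows on GRCh38.p14, from 250 bases before to 50 bases after an annotated start site, written 5′ to 3′ on the plus strand. CYLD has 3 such windows, of which the outer pair is shown, and BIRC2 has 2 overlapping ones, of which the first is shown. Capitals mark matches to the NF-kB consensus motif and to the cAMP response element TGACGTCA, searched on both strands.
BIRC3, chr11:102317234-102317533: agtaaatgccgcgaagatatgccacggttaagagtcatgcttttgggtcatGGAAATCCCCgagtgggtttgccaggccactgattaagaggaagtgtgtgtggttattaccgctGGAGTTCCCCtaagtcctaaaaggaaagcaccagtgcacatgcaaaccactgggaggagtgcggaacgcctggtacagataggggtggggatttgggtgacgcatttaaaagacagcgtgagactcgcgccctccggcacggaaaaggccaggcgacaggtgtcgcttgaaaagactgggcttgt
BIRC2, chr11:102346964-102347263: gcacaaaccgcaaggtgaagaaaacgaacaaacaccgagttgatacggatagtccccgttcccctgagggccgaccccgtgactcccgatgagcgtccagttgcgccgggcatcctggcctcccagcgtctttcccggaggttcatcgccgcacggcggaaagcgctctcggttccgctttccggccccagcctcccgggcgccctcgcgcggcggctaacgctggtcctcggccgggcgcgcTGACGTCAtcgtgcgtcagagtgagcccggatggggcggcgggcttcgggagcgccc
CYLD, first window, chr16:50741836-50742135: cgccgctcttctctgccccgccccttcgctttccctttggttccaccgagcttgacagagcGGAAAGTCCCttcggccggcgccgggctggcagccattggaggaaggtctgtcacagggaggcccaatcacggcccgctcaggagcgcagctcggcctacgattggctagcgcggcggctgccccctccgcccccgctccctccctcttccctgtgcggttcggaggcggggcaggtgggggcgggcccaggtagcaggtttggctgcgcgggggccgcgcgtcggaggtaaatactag
CYLD, last window, chr16:50742165-50742464: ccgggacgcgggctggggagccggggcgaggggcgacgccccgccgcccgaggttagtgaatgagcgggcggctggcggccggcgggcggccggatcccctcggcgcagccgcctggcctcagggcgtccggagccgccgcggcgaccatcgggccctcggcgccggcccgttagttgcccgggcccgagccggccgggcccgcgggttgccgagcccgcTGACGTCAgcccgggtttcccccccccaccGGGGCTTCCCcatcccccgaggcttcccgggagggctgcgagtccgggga

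The BIRC3 window held 2 matches to the NF-kB consensus, at positions -199 and -135 from the start site. BIRC2 had no NF-kB match in either window, and its single cAMP response element lay at -7 from the first start site. In CYLD, 1 NF-kB match lay at -189 from the first start site, and the last window held a cAMP response element at -30 from its own start site and an NF-kB match at the start site itself. Over all 27305 genes with windows, 13.3% had an NF-kB match in at least 1 window and 2.25% had the cAMP response element. The 10 genes have more windows each than genes in general, so shares of windows are the closer comparison. An NF-kB match stood in 5 of their 25 windows, against 11.3% of all 35116 windows, and the cAMP response element in 3 of the 25, against 1.85%, with 1 element counted in both overlapping windows of BIRC2. Among the 10 genes, BIRC3, BIRC6, CFLAR and CYLD had an NF-kB match, and BIRC2 and CYLD had the cAMP response element. An AP-1 motif (TGANTCA, 7.71% of all windows) occurred in 1 of the CFLAR windows only, and the TEAD motif GGAATG (14% of all windows) in none of the 25 windows of the 10 genes. A match describes the letters of the window, not a bound site, and the searched motifs were chosen with results of these data known. They overlapped nowhere in the windows shown.

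Of the 10 genes, 9 rose in LY and none fell in the limma fit, and only HTRA2 did not pass (adjusted p = 0.0538, Benjamini-Hochberg over all tested genes). The background was high, since 39.8% of all tested genes rose and 24.9% fell. The median log2 fold change, LY over DMSO on the scale of log2(TPM + 1), was 0.80 over the 10 genes and 0.17 over all tested genes. All LY values lay above all DMSO values in each of the 10 genes, and the groups were likewise separate, in either direction, in 49.4% of all tested genes. CYLD, BIRC3 and BIRC2 had log2 fold changes above 2, a size that 1.32% of all tested genes passed, and this limit was set after the values were seen. With median-ratio scaling, upper-quartile scaling or removal of mitochondrially encoded genes 8 of the 10 rose, and without NC-2 or without NC-5 all 10 rose. Of 11663 tested genes (11650 after that removal), 3977, 3452 and 3871 rose under the first settings, in that order. Without NC-2 4607 rose and without NC-5 4522, against 4639 in the main fit.

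**Figure D1:**
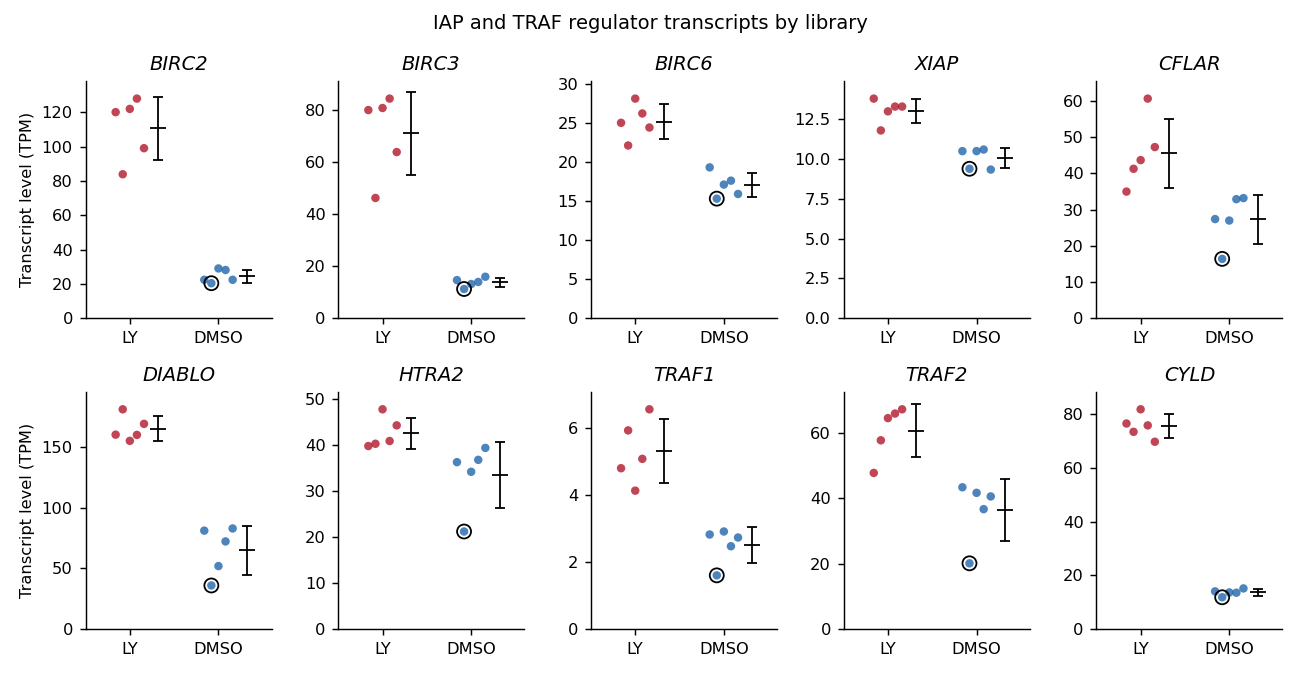
Transcript level (TPM, linear axis from 0) of each of the 10 genes in 5 LY libraries (left) and 5 DMSO libraries (right), with the mean ± SD as black bars; a ring marks control library NC-2. BIRC2, BIRC3 and CYLD lie far above their controls (lowest LY values of 83.9, 46.1 and 69.8 TPM), whereas XIAP and HTRA2 differ little between groups.

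Control library NC-2 stood apart from the other libraries. Mitochondrially encoded genes took 37.5% of its TPM, against 12.2% to 14.1% in the other 4 controls and 6.43% to 14.9% in LY. NC-2 had the lowest control value in 9 of the 10 genes, all but XIAP. The share of all tested genes with their lowest control value in NC-2 was not counted, so this is not a result about the 10 genes. In CFLAR, DIABLO, HTRA2, TRAF1 and TRAF2 the NC-2 level was 0.496 to 0.584 times the mean of the other controls. The part of this library in the results was not tested beyond the values without it, which are given beside each of the 10 genes. The epithelial markers KRT8 and KRT18 measured 1344 ± 120 and 1010.0 ± 66.8 TPM in LY, and 1419 ± 212 and 714 ± 70.3 TPM in DMSO (SD, n = 5 each). The ductal keratin KRT19 fell to 21 ± 3.47 TPM in LY against 148 ± 16.6 TPM in DMSO (log2 fold change -2.77 ± 0.13, adjusted p = 1.48e-08, limma), and SOX9, a ductal transcription factor, measured 166 ± 45.4 TPM in LY and 123 ± 29.1 TPM in DMSO (adjusted p = 0.0839). CDH1, KRT7 and EPCAM averaged under 2 TPM in both groups, and the part of the KRT19 difference in the results was not tested. All 8 acinar and endocrine markers were listed at 0 in every library, as were the lymphoid and myeloid genes CD3E and LYZ. The leukocyte list still summed to 132 to 232 TPM in LY and 35.1 to 47.7 TPM in DMSO, nearly all of it CD68, a lysosomal gene (179 ± 43.5 and 39.8 ± 5.01 TPM). Summed endothelial markers were 2.74 to 3.32 TPM in LY and 0.0988 to 0.535 TPM in DMSO, and summed fibroblast markers at most 1.01 TPM in LY and 2.73 to 4.16 TPM in DMSO, with PECAM1, TEK, DCN and LUM at 0.

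The ligase genes BIRC2 and BIRC3 both rose. BIRC2 measured 120.1, 83.9, 122, 128 and 99.1 TPM in LY replicates 1 to 5, against 22.4, 20.4, 29, 28.1 and 22.4 TPM in controls NC-1 to NC-5. The lowest LY value was 2.90 times the highest control. The log2 fold change was 2.13 ± 0.14 (SE; adjusted p = 1.61e-07, limma), with a 95% interval of 1.82 to 2.44. BIRC3 measured 79.8, 46.1, 80.6, 84.2 and 63.7 TPM in LY, against 14.6, 11.2, 13.1, 13.9 and 15.9 TPM in the controls. LY replicate 2 was the lowest LY library in both ligase genes, and the groups stayed well apart. For BIRC3 the log2 fold change was 2.26 ± 0.16 (adjusted p = 2.91e-07), and without NC-2 the values were 2.20 for BIRC3 and 2.07 for BIRC2. By size of increase, BIRC3 ranked 83 and BIRC2 115 among the 11663 tested genes.

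The ratio of BIRC3 to BIRC2 TPM within a library was 0.634 ± 0.0484 in LY and 0.571 ± 0.107 in DMSO (SD, n = 5 each). On the log2 scale this ratio differed by 0.13 (two-sided exact permutation p = 0.349, adjusted p = 0.524 over 6 ratios), which does not show that the pair responded equally. The log2 ratio ran from -0.85 to -0.58 in LY, with replicate 2 lowest and apart from the rest, and from -1.09 to -0.47 in DMSO. A ratio taken within a library does not depend on how that library was scaled, apart from the pseudocount. BIRC2 was the more abundant of the pair in all 10 libraries.

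The 2 tested genes next to the ligase pair changed far less. YAP1, the Hippo pathway effector, lies 84 kb upstream of BIRC3 and measured 90.6 ± 8.49 TPM in LY against 61 ± 4.71 TPM in DMSO (log2 fold change 0.56 ± 0.095, adjusted p = 0.000249). TMEM123, a membrane protein gene 17.7 kb past BIRC2 on the opposite strand, had 146 ± 19.8 TPM in LY and 173 ± 19.3 TPM in DMSO (log2 fold change -0.25 ± 0.12, adjusted p = 0.0757). TMEM123 passed downward under the 3 other scalings tried and after removal of mitochondrial genes (adjusted p = 0.009 to 0.049). Over all 41 tested genes within 100 kb of the 10, other than the 10 themselves, 12 rose (29.3%, against 39.8% of all tested genes) and 10 fell (24.4%, against 24.9%).

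**Figure D2:**
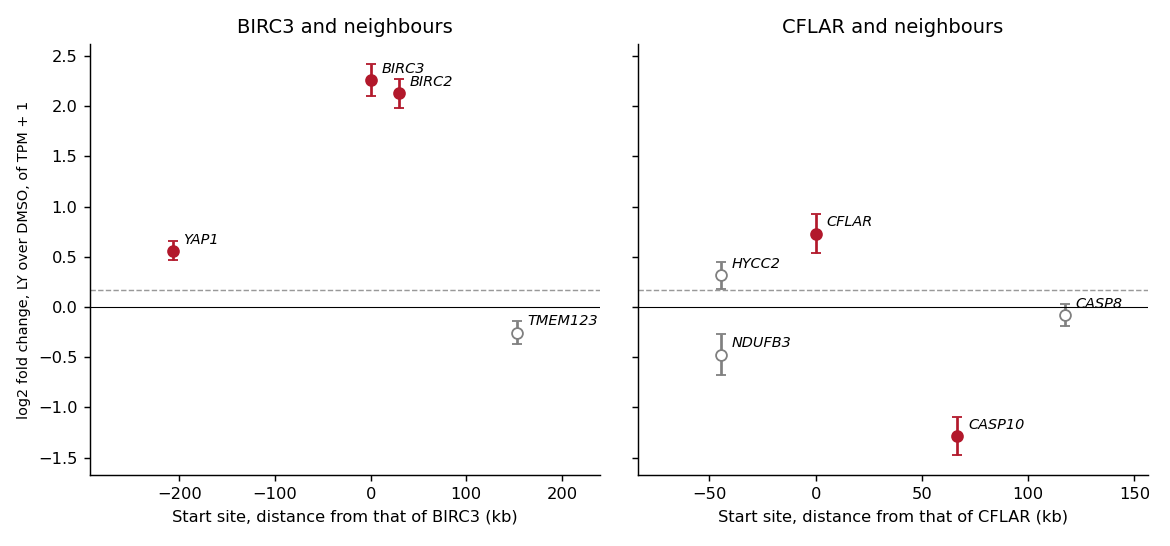
Log2 fold change, LY over DMSO, of BIRC3 (left) and CFLAR (right) with their tested neighbours within 100 kb, against the distance between start sites (kb). Bars are SE, filled points passed an adjusted p of 0.05 and the dashed line is the median of all tested genes (0.17); BIRC3 (2.26) and BIRC2 (2.13) stand above YAP1 (0.56) and TMEM123 (-0.25), and CFLAR (0.73) above CASP10 (-1.28).

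The remaining IAP genes moved little. BIRC6 (ENSG00000115760, chromosome 2, 32357028 to 32618899, plus strand) encodes a very large ubiquitin-conjugating IAP. It measured 25, 22.1, 28.1, 26.2 and 24.4 TPM in LY, against 19.3, 15.3, 17.1, 17.6 and 15.9 TPM in the controls. Every LY value was above every control, and the log2 fold change was 0.53 ± 0.098 (adjusted p = 0.000469, limma; 0.50 without NC-2). XIAP (ENSG00000101966, chromosome X, 123859724 to 123913979, plus strand) measured 13.8, 11.8, 13, 13.3 and 13.3 TPM in LY, against 10.5, 9.39, 10.5, 10.6 and 9.34 TPM in the controls. Its replicates lay close together (coefficient of variation 5.63% in LY and 6.27% in DMSO), and the groups did not overlap. XIAP rose by a log2 fold change of 0.35 ± 0.087 (adjusted p = 0.00416), only 0.18 above the median of all genes, and by 0.32 without NC-2 (adjusted p = 0.00459). That call was lost with median-ratio scaling (0.21, adjusted p = 0.0511), upper-quartile scaling (0.12, adjusted p = 0.249) and removal of mitochondrially encoded genes (0.20, adjusted p = 0.0999).

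Other BIRC proteins and IAP modulators were mostly at low levels. Of the 7 genes listed, 3 were tested. None rose, against 39.8% of all tested genes, 2 fell (66.7%, against 24.9%) and 1 did not pass. AREL1, a ubiquitin ligase for IAP antagonists, measured 20.7 ± 1.99 TPM in LY and 33.7 ± 5.16 TPM in DMSO (log2 fold change -0.67 ± 0.12, adjusted p = 0.000361). NAIP, the inflammasome receptor of the family, was at 1.40 ± 0.156 TPM in LY and 1.96 ± 0.279 TPM in DMSO (log2 fold change -0.30 ± 0.099, adjusted p = 0.0196), and did not pass with quantile normalization (adjusted p = 0.522) or without NC-3 (adjusted p = 0.0542). BIRC5 (survivin, a mitotic regulator), named after its values were seen, had 88.7 TPM in LY and 88.4 TPM in DMSO (log2 fold change 0.034 ± 0.29).

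CFLAR (ENSG00000003402, chromosome 2, 201116104 to 201176687, plus strand) rose. It measured 35, 41.3, 43.7, 60.7 and 47.3 TPM in LY, against 27.4, 16.4, 27, 32.9 and 33.2 TPM in the controls. The groups came close, since the lowest LY library was 1.05 times the highest control. The log2 fold change was 0.73 ± 0.19 (adjusted p = 0.00561, limma), and 0.57 without NC-2 (adjusted p = 0.0043). Gene-level TPM does not tell the long and short FLIP forms apart.

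CFLAR shares its locus with the caspase genes it resembles. CASP8, the initiator caspase that FLIP binds, had 49.6 ± 5.47 TPM in LY and 52.3 ± 5.09 TPM in DMSO (log2 fold change -0.078 ± 0.11, adjusted p = 0.54; 95% interval -0.31 to 0.15). It passed downward with quantile normalization (-0.33, adjusted p = 0.0152) and upper-quartile scaling (-0.32, adjusted p = 0.0183). CASP10, a related initiator caspase, fell to 1.67 ± 0.736 TPM in LY against 5.34 ± 0.872 TPM in DMSO (log2 fold change -1.28 ± 0.19, adjusted p = 9.92e-05). On the other side of CFLAR, neither HYCC2 (log2 fold change 0.31 ± 0.13, adjusted p = 0.052) nor the respiratory chain gene NDUFB3 (-0.47 ± 0.20, adjusted p = 0.056) passed. HYCC2 passed upward under 4 alternatives (adjusted p = 0.0329 to 0.0492), and NDUFB3 passed downward without NC-2 (-0.66, adjusted p = 0.0012) and under the other scalings. The ratio of CFLAR to CASP8 TPM was 0.932 ± 0.227 in LY and 0.525 ± 0.136 in DMSO, a log2 difference of 0.81 (exact permutation p = 0.0159, adjusted p = 0.0317). This call was lost when any 1 of 8 of the 10 libraries was left out (adjusted p = 0.0635), and held without LY replicate 1 or without NC-5. With 1 library left out, the smallest two-sided exact permutation p is 0.016 before adjustment over 6 ratios. That left little room to pass, so the loss alone does not show dependence on single libraries. The groups overlapped in this ratio, with LY replicate 1 at -0.60 and NC-5 at -0.50 on the log2 scale. The runs that kept the call were those without these overlapping libraries.

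Both antagonist genes were measured, and only DIABLO passed. DIABLO (ENSG00000184047, chromosome 12, 122207663 to 122226568, minus strand) measured 160.1, 181, 155, 159.9 and 169 TPM in LY, against 81, 35.8, 51.8, 72.1 and 82.8 TPM in the controls. It was the most abundant of the 10 genes in both groups. The LY libraries varied by 6.24% of their mean and the controls by 31.4%. Its log2 fold change was 1.40 ± 0.20 (adjusted p = 7.28e-05, limma), 1.21 without NC-2, and it ranked 582 by size of increase. HTRA2 (ENSG00000115317, chromosome 2, 74529377 to 74533348, plus strand), a serine protease, measured 39.8, 40.3, 47.8, 40.9 and 44.3 TPM in LY, against 36.3, 21.2, 34.2, 36.8 and 39.4 TPM in the controls. The groups did not overlap, but the lowest LY value was only 1.01 times the highest control. The HTRA2 log2 fold change of 0.36 ± 0.15 had a 95% interval of 0.030 to 0.69. It was 0.21 without NC-2 (adjusted p = 0.0389) and 0.43 without NC-5 (adjusted p = 0.0373).

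Both antagonist genes overlap other genes on the genome, and whether reads were counted by strand is not given in the sources used here. AUP1, a gene of lipid droplets and protein degradation, overlaps HTRA2 by 563 bases on the opposite strand and was far more abundant, with 375 ± 20.6 TPM in LY and 171 ± 19.8 TPM in DMSO (log2 fold change 1.13 ± 0.10, adjusted p = 1.63e-06). LOXL3, which overlaps HTRA2 by 935 bases, had 2.11 ± 0.722 TPM in LY and 0.922 ± 0.28 TPM in DMSO (log2 fold change 0.67 ± 0.17, adjusted p = 0.00466). B3GNT4 overlaps DIABLO by 1290 bases and measured 5 ± 0.491 TPM in LY and 9.14 ± 2.29 TPM in DMSO (log2 fold change -0.72 ± 0.17, adjusted p = 0.00251). The gene AC048338.1 (ENSG00000256861) runs along nearly all of DIABLO on the same strand and was at 5.21 TPM in LY replicate 3, against at most 0.249 TPM in the other 9 libraries. A second annotated DIABLO entry, ENSG00000284934, covers the same span and was not analysed here. Values of DIABLO and HTRA2 are therefore uncertain by the reads such genes may share. BIRC2, BIRC3 and TRAF1 overlap no annotated gene, and the genes that overlap BIRC6, XIAP, CFLAR, TRAF2 and CYLD were not analysed here.

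XIAP fell relative to DIABLO. The ratio of XIAP to DIABLO TPM was 0.0794 ± 0.00834 in LY and 0.171 ± 0.0612 in DMSO (SD, n = 5 each), with no overlap between groups. The log2 difference was -1.05 (two-sided exact permutation p = 0.0079, the smallest that 5 against 5 libraries allow, adjusted p = 0.0238), and -0.88 without NC-2 (adjusted p = 0.0476). With 1 library left out, the smallest two-sided exact permutation p is 0.016 before adjustment. For XIAP and HTRA2 the ratio was 0.307 ± 0.0289 in LY and 0.312 ± 0.0773 in DMSO, a log2 difference of -0.017 (exact permutation p = 0.929, adjusted p = 0.929) whose sign turned without NC-2 (0.11).

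**Figure D3:**
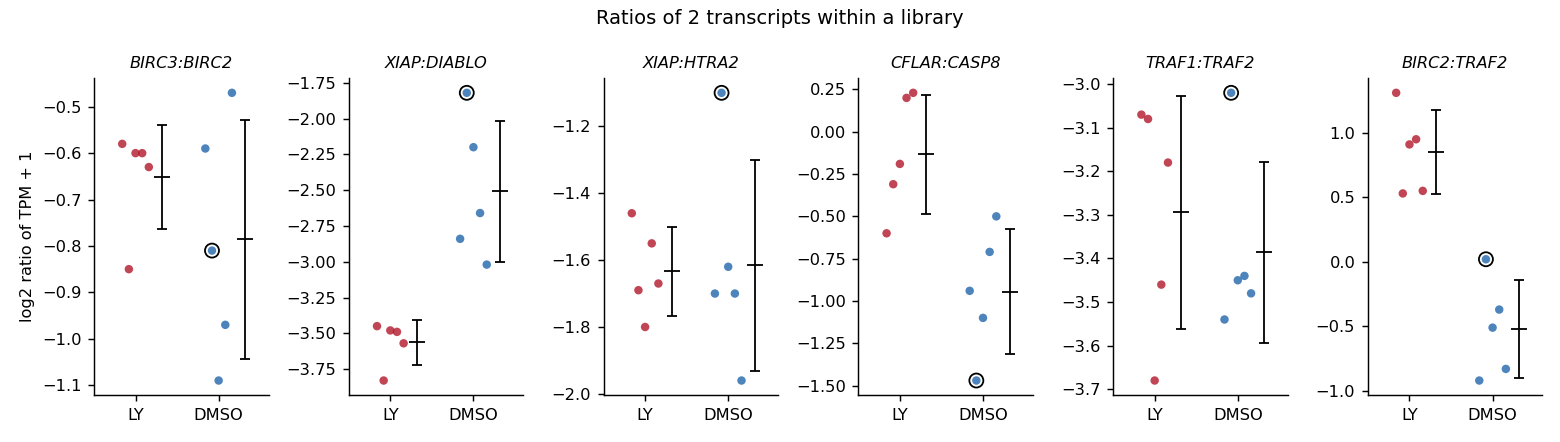
Log2 ratio of 2 transcripts (TPM + 1 each) within each library, for 6 pairs, in 5 LY (left) and 5 DMSO libraries (right), with the mean ± SD as black bars; a ring marks NC-2, and the axes differ between panels and do not start at 0. XIAP:DIABLO lies lower in every LY library (highest LY value -3.45, lowest control -3.02) and BIRC2:TRAF2 higher (lowest LY value 0.53, highest control 0.02), whereas the groups overlap in the other 4 pairs.

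TRAF1 and TRAF2 both rose, and their levels differed widely. TRAF1 (ENSG00000056558, chromosome 9, 120902393 to 120929173, minus strand) encodes a TRAF without the RING domain of its relatives. It measured 4.8, 5.93, 4.13, 5.08 and 6.56 TPM in LY, against 2.82, 1.6, 2.91, 2.47 and 2.73 TPM in the controls, the lowest levels among the 10 genes. The log2 fold change of TRAF1 was 0.85 ± 0.14 (adjusted p = 0.000263, limma), a value that the pseudocount of 1 lowers, and it was 1.06 with a pseudocount of 0.1 and 0.74 without NC-2. TRAF2 (ENSG00000127191, chromosome 9, 136881912 to 136926607, plus strand) measured 47.8, 57.8, 64.6, 66 and 67.3 TPM in LY, against 43.4, 20.1, 41.7, 36.7 and 40.6 TPM in the controls. No LY value fell below a control, with 47.8 TPM as the lowest LY value and 43.4 TPM as the highest control. TRAF2 rose by 0.76 ± 0.19 (adjusted p = 0.00454), by 0.77 with a pseudocount of 0.1, and by 0.56 without NC-2 (adjusted p = 0.000723). The ratio of mean TPM, LY over DMSO, was 2.12 for TRAF1 and 1.66 for TRAF2.

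The TRAF1 to TRAF2 ratio of plain TPM was 0.0883 ± 0.017 in LY and 0.0697 ± 0.00564 in DMSO. The tested log2 ratio of TPM + 1 differed by 0.092 (exact permutation p = 0.516, adjusted p = 0.619), which does not show that both rose equally. That difference depends on the pseudocount, because TRAF1 is low. With a pseudocount of 0.1 the log2 fold changes were 1.06 for TRAF1 and 0.77 for TRAF2. BIRC2 rose more than TRAF2, the adaptor that carries it to receptors. The ratio of BIRC2 to TRAF2 TPM was 1.85 ± 0.433 in LY and 0.709 ± 0.199 in DMSO, with a log2 difference of 1.37 (exact permutation p = 0.0079, adjusted p = 0.0238). The groups did not overlap in that ratio, and the log2 difference ran from 1.26 to 1.51 when 1 library was left out.

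CYLD had the largest increase of the 10 genes with replicates that varied by 5.86% of their mean in LY and 8.72% in DMSO. It measured 76.6, 73.5, 81.9, 75.9 and 69.8 TPM in LY, against 14, 11.8, 13.6, 13.5 and 15.1 TPM in the controls. The lowest LY library stood 4.62 times above the highest control. Its log2 fold change was 2.39 ± 0.089 (adjusted p = 7.02e-09, limma), with a 95% interval of 2.20 to 2.59, which placed it at rank 60 of 11663. Without NC-2 it was 2.35, and among all 19 alternative settings CYLD ranged from 2.16 to 2.47.

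**Figure D4:**
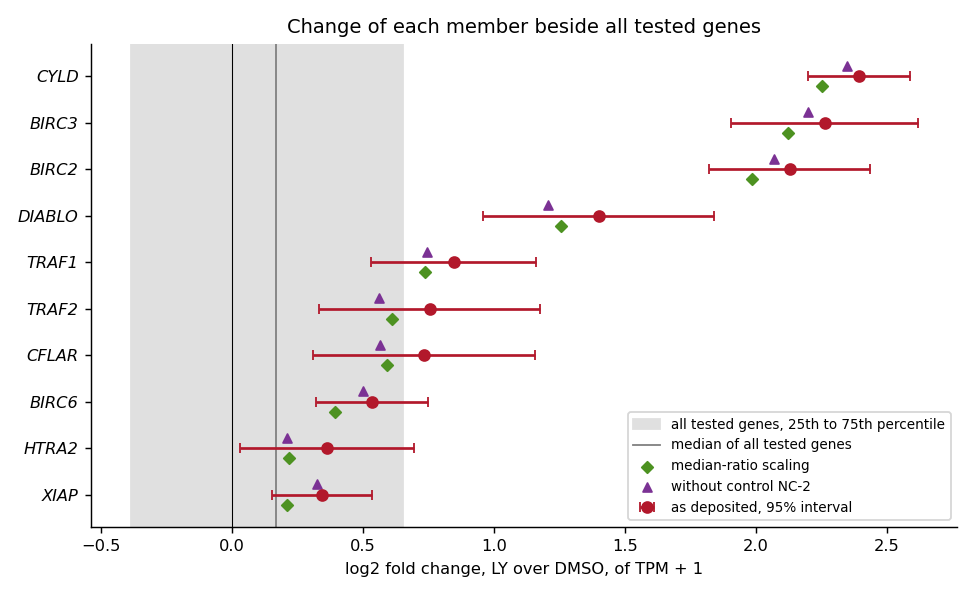
Log2 fold change, LY over DMSO, of TPM + 1 for each of the 10 genes, as deposited (circles with 95% intervals), with median-ratio scaling (diamonds) and without control NC-2 (triangles); the grey band spans the 25th to 75th percentile of all tested genes and the grey line is their median. CYLD (2.39), BIRC3 (2.26), BIRC2 (2.13) and DIABLO (1.40) lie far beyond the band. TRAF1 (0.85), TRAF2 (0.76) and CFLAR (0.73) lie just beyond it, whereas BIRC6 (0.53), XIAP (0.35) and HTRA2 (0.36) lie inside it.

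Other TRAFs and TNF receptor adaptors went both ways. Of 11 tested genes out of 12 listed, 5 were called higher (45.5%, against 39.8% of all tested genes) and 3 lower (27.3%, against 24.9%). The remaining 3 were neither. The median log2 fold change of the 11 was -0.0087, against 0.17 for all genes. This balance depended on scaling, with 4 up and 4 down under median-ratio scaling, 3 up and 6 down under upper-quartile scaling, and 5 up and 5 down without NC-2. Over all 11663 tested genes, the counts in that order were 3977 up and 3756 down, 3452 up and 4228 down, and 4607 up and 3610 down. TRAF6, the ligase of interleukin 1 and Toll-like receptor signalling, measured 7.18 ± 0.863 TPM in LY and 3.64 ± 0.303 TPM in DMSO (log2 fold change 0.81 ± 0.10, adjusted p = 2.44e-05). TANK, a TRAF-binding regulator, rose (0.70 ± 0.16, adjusted p = 0.0025), although not with upper-quartile scaling (0.46, adjusted p = 0.0624). TIFA, an adaptor of TRAF6, fell to 2.08 ± 0.429 TPM in LY against 6.21 ± 1.55 TPM in DMSO (log2 fold change -1.21 ± 0.16, adjusted p = 4.11e-05).

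The next list holds genes that assemble, read or edit ubiquitin chains at TNF receptors. Of its 18 tested genes out of 19 listed, 8 rose (44.4%, against 39.8% of all tested genes) and 1 fell (5.56%, against 24.9%), and 9 were not called. Their median log2 fold change was 0.27, against 0.17 for all genes. Under upper-quartile scaling 7 rose and 2 fell, where 3452 of all 11663 tested genes rose and 4228 fell. OTUD7B, a deubiquitinase like CYLD, measured 37.9 ± 4.89 TPM in LY and 10.1 ± 1.61 TPM in DMSO (log2 fold change 1.81 ± 0.13, adjusted p = 3.24e-07). TAX1BP1, an autophagy receptor and partner of the editing enzyme A20, had 201 ± 18 TPM in LY and 76 ± 9.39 TPM in DMSO (1.40 ± 0.10, adjusted p = 3.87e-07). RNF31, the catalytic subunit of the linear chain ligase, was the only one to fall, with 24.6 ± 4.17 TPM in LY and 36.8 ± 2.21 TPM in DMSO (-0.57 ± 0.12, adjusted p = 0.000963).

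Among caspases and death signalling genes, 4 of 13 tested (14 listed) rose (30.8%, against 39.8% of all tested genes). A further 5 fell (38.5%, against 24.9%), and 4 were not called. The median log2 fold change of the 13 was 0.14, and 0.00069 without NC-2. For all tested genes it was 0.17, and 0.099 without NC-2. TNFRSF10A, a death receptor for TRAIL, measured 71.6 ± 5.68 TPM in LY and 21.9 ± 4.55 TPM in DMSO (1.69 ± 0.15, adjusted p = 1.15e-06). TNFRSF1A, the main TNF receptor, fell to 127 ± 9.91 TPM in LY against 231 ± 33.7 TPM in DMSO (-0.85 ± 0.12, adjusted p = 4.95e-05). CASP10, described above beside CFLAR, had the largest decrease of this list.

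In the non-canonical NF-kB pathway, BIRC2, BIRC3 and TRAF2 normally keep the kinase NIK low. Of its 7 tested genes (8 listed), 6 rose (85.7%, against 39.8% of all tested genes) and 1 fell (14.3%, against 24.9%). This list, like the others, was chosen with earlier results of these data known, so these shares do not test the pathway. The median log2 fold change of the 7 was 0.74, against 0.17 for all tested genes. With quantile normalization or upper-quartile scaling 5 rose, where 4056 and 3452 of all 11663 tested genes rose, against 4639 as deposited. TNFRSF12A, the TWEAK receptor, showed the largest increase of the list, with a log2 fold change of 3.69 ± 0.19 (1349.5 ± 223 TPM in LY, 105 ± 27.5 TPM in DMSO). NFKB2, the precursor of the p52 subunit, measured 125 ± 8.93 TPM in LY and 47.6 ± 12.1 TPM in DMSO (1.41 ± 0.18, adjusted p = 2.77e-05). CD40, a TNF receptor of antigen-presenting cells, fell to 5.36 ± 1.58 TPM in LY against 17.4 ± 6.04 TPM in DMSO (-1.48 ± 0.27, adjusted p = 0.000404).

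NF-kB feedback and target genes were mixed. Of 15 tested (17 listed), 8 were higher (53.3%, against 39.8% of all tested genes) and 2 lower (13.3%, against 24.9%). The other 5 did not pass, and the median log2 fold change was 0.33, against 0.17 for all tested genes. With median-ratio or upper-quartile scaling 7 rose and 5 fell, and without NC-2 8 rose and 4 fell. Of all 11663 tested genes, 3977 rose and 3756 fell with median-ratio scaling, and 3452 rose and 4228 fell with upper-quartile scaling. Without NC-2, 4607 of them rose and 3610 fell. NFKBIB, an inhibitor of NF-kB, measured 197 ± 30.5 TPM in LY and 33.3 ± 6.96 TPM in DMSO (2.54 ± 0.16, adjusted p = 1.12e-07). The chemokine gene CXCL8 had 345 ± 36.5 TPM in LY and 74 ± 36.7 TPM in DMSO (2.33 ± 0.27, adjusted p = 1.19e-05). IRF1, a transcription factor of interferon responses, fell to 6.46 ± 1.47 TPM in LY against 24.2 ± 8.97 TPM in DMSO (-1.71 ± 0.22, adjusted p = 3.18e-05).

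**Figure D5:**
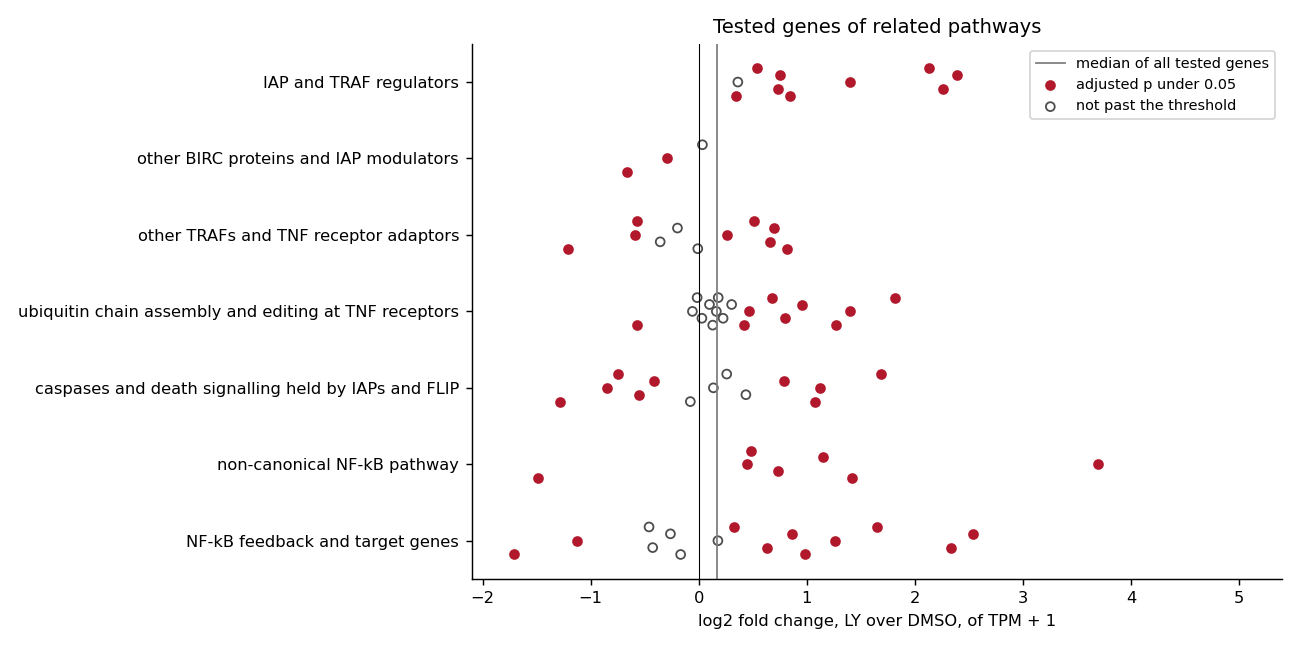
Log2 fold change, LY over DMSO, of TPM + 1 for every tested gene of the 10 IAP and TRAF regulators (top row) and of 6 related lists; filled points passed an adjusted p of 0.05, open points did not, and the grey line is the median of all tested genes (0.17). All 10 regulators lie to the right of 0, whereas each of the 6 other lists has points on both sides.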

How the data were processed

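RNA sequencing libraries of LY-treated and DMSO-treated PANC-1 cells were compared (5 per group). The authors deposited TPM per gene, 1 column per library. No aligner, counter, annotation or scaling across libraries is given in the sources used here, and the submitters' processing notes list GRCm38, mm10 and hg38 without roles. Depth is unknown, so no counting interval is given. Of 20263 Ensembl IDs, 20148 were named from a gene name table and 76 from GENCODE 29, which also gave positions. Promoters came from RefSeq (GRCh38.p14).

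Values of log2(TPM + 1) were modelled by group alone in limma 3.58.1 (R 4.3.3), with a mean-variance trend, over the 11663 genes that reached a TPM of 1 in 5 or more libraries. An adjusted p under 0.05 (Benjamini-Hochberg over all tested genes) counted as a change. Ratios within libraries were compared by two-sided exact permutation tests (scipy 1.17.1), adjusted over 6. The fit was also run on simulated data with independent noise per gene and few planted changes. That setting lacks the many changed genes and the shifted control NC-2 of these data, so it does not test the calls here. At most 0.00714% of genes had the same nonzero TPM in a pair of libraries. The 10 genes and all lists were chosen with earlier results of these data known. Values are given for 2 changed genes per list with the largest change in the prevailing direction, the largest change the other way, the neighbours of BIRC2, BIRC3 and CFLAR within 100 kb, and genes that overlap the 10; BIRC5 was named after its values were seen. Alternatives covered the pseudocount, filter, scaling, trend and each library left out.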

Additional observations from a re-analysis of the deposited data

Results flagged for a closer look

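Values in groups of 5 libraries were searched for a library far from the rest (gap to the nearest library over 0.71 of the group's range), in 82 groups of values and ratios. Chance would mark about 1 in 20 independent groups. These groups come from the same libraries and are not independent, so the number marked cannot be judged against that rate. In all, 11 were marked, 9 of them for control NC-2, the library with 37.5% mitochondrial TPM. Among the 10 genes, NC-2 was low in HTRA2 (21.2 TPM, other controls 34.2 to 39.4 TPM) and TRAF2 (20.1 TPM, others 36.7 to 43.4 TPM), and high in the log2 ratio of TRAF1 to TRAF2 (-3.02, others -3.54 to -3.44). Further NC-2 values apart from the other controls were OTUD7B at 7.29 TPM, TAX1BP1 at 92.0 TPM, NFKB2 at 26.4 TPM, NDUFB3 at 65.1 TPM, B3GNT4 at 5.15 TPM and AUP1 at 137 TPM, with TAX1BP1 the only one of these above the other controls. In LY, replicate 2 had a log2 ratio of BIRC3 to BIRC2 of -0.851 (others -0.63 to -0.58), and replicate 5 had 40.0 TPM of CASP8 (others 50.2 to 53.5 TPM).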

How the results depend on the processing

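All 10 genes kept a positive log2 fold change under every alternative run (TRAF1 was below a filter at a TPM of 5 and has no value there), and BIRC2, BIRC3, BIRC6, CFLAR, DIABLO, TRAF2 and CYLD stayed past the threshold in all 19, and TRAF1 in all 18 it had. XIAP was called in 16 of 19 and HTRA2 in 2. Of 660 values of 35 named genes under alternatives, 636 kept direction and call, 6 lost the call, 18 gained it and none turned sign. Changed genes numbered 7538, and 7147 to 8217 with 1 library left out. Increases made up 61.5% of them for the values as they stood (median of all genes 0.17), 51.4% after median-ratio scaling (0.034), 52.3% after quantile normalization (0.050) and 44.9% after upper-quartile scaling (-0.058). Of other BIRC proteins and IAP modulators, 1 gene instead of 2 changed at a TPM of at least 5 and with quantile normalization, and 1 to 2 with 1 library left out. For CFLAR:CASP8 the log2 difference was 0.68 to 0.93 with 1 library left out. For XIAP:HTRA2 it was -0.10 to 0.11 (0.025 without LY replicate 3), and 0.000882 with a pseudocount of 0.1 (adjusted p = 0.984). The causes were not tested. No paired analysis was possible because the numbers of the control columns could not be tied to numbered samples. Without read totals, precision at low TPM such as that of TRAF1 is unknown.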
